A study of Gallus gallus with 8 samples.

Results

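Glycolysis splits glucose into pyruvate in the cytosol, and pyruvate is either reduced to lactate or carried into mitochondria and oxidised by the pyruvate dehydrogenase complex. Many of these steps have several isozymes, encoded by separate genes that tissues use in different proportions. The heart is known for oxidising lactate and fatty acids, for a lactate dehydrogenase made mostly of the B subunit, and for leaning more on glucose before birth or hatching than after. Several enzymes and transporters of the pathway, HK2, LDHA, SLC2A1, PDK1 and PFKFB3 among them, are known targets of hypoxia-inducible factor in mammals.

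The genes described here were picked by symbol from a list of 39 that covers glucose uptake, glycolysis, lactate and pyruvate handling and glycogen. A row under that symbol was present for 33 of the 39, and 34 rows matched because SLC16A3 has 2. Rows were kept if they reached 1 RPKM (read counts scaled for gene length and library depth) in at least 2 libraries, which 33 rows did, 1 for each of the 33 genes, of 11556 rows that passed among 15873 in all. The other SLC16A3 row (ENSGALG00000012288) never exceeded 0.0861 RPKM. ALDOA, ENO3, PKM2, MPC1, MPC2 and GYS1 have no row under those symbols. By RefSeq synonyms (GRCg7b gene table), PKM and PKM2 are 1 gene, which that table calls PKLR, so the isozyme behind the PKM row is uncertain. The table gives BRP44 as a synonym of MPC2, and both BRP44L and MPC1 as synonyms of MPC1L.

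The libraries hold messenger RNA of hearts from chicken embryos at day 16 of incubation, in 4 breeds with 2 libraries each and no treatment named in the labels. Linzhi Tibetan and Lhasa White carry Tibetan place names and are grouped as highland, while Chahua, a breed native to southern China, and White Leghorn (in the labels "White leghom"), an egg-laying breed, are grouped as lowland. This grouping rests on the breed names. Sex, incubation altitude and oxygen are not among the labels. They do not say that both libraries of a breed are from different embryos either. W-linked (female-specific) ATP5A1W lay at 4.02 and 398 RPKM in the Lhasa White pair and at 409 and 0.241 in the White Leghorn pair. The libraries of these breeds thus differed in sex-linked transcripts, as repeats of the same embryo would not. Linzhi Tibetan (0.0774 and 0.355 RPKM) and Chahua (445 and 496) had no such difference, so the spread within these breeds may be technical. Altitude of origin and breed cannot be told apart with 2 breeds on each side.

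Depth was 17245669 to 22157553 mapped reads per library. All 8 cardiomyocyte markers examined were present, with a summed level of 13374 to 17616 RPKM, while of the skeletal muscle list (3 of 4 with a row) MYOD1 and MYOG, its defining regulators, stayed at or below 0.391 RPKM and ACTA1, an actin that embryonic heart also expresses, lay at 768 to 2026. Of 8 atrial markers (7 with a row, summed level 1510 to 3705 RPKM), MYH7, the atrial myosin of the chicken, and BMP-10 were high in Lhasa White 2 (1457 and 289.7 RPKM) and Chahua 2 (115 and 22.4), against at most 7.07 and 3.93 in the other libraries. NR2F2 was also highest in Lhasa White 2 (66.4 RPKM) and Chahua 2 (40.2), against at most 33.6 in the other libraries. The rest of the list did not follow in Chahua 2. There TBX5 (41.8 RPKM) and GJA5 (49.4) were the lowest of the 8 libraries, and NPPA and MYL4 lay within the range of the others. The ventricular list (3 of 4 with a row, MYL2 with 2 rows that both count) summed to 24391 RPKM in Chahua 2, the highest, and to 10736 in Lhasa White 2, the lowest. Of this list, IRX4 did not follow the sum in Chahua 2. It lay at 61.7 RPKM there and 16.2 in Lhasa White 2, against at least 64.9 in the other libraries. Lhasa White 2 also had the highest sums of the fibroblast and matrix list (4468 RPKM against at most 1831) and the smooth muscle list (68.2 against at most 30.5). W-linked (female-specific) ATP5A1W lay at 398 to 496 RPKM in Lhasa White 2, both Chahua libraries and White Leghorn 1, and at or below 4.02 RPKM in the others. Hemoglobin HBAA was lowest in Linzhi Tibetan 1 (3898 RPKM) and highest in Lhasa White 1 (16344 RPKM). These libraries are bulk tissue, so fewer cells of a type and less RNA per cell cannot be told apart.

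The 33 genes spanned more than 3 orders of magnitude and together took 2.02% ± 0.163 of mapped reads (SD, n = 8). The share was lowest in Lhasa White 2, at 1.77% (95% Wilson interval 1.76% to 1.77%), and highest in White Leghorn 1, at 2.32% (2.32% to 2.33%), where the intervals cover counting error only. GAPDH, which oxidises glyceraldehyde phosphate, had the highest level at 6838 ± 444 RPKM (SD, n = 8), and PFKFB3 the lowest at 1.79 ± 0.711. ENO1, the enolase of most tissues, followed GAPDH at 1352 ± 169 RPKM. LDHB, ALDOC, an aldolase, and PGAM1, the phosphoglycerate mutase, lay between 484 and 1631, 527 and 849, and 511 and 874 RPKM over the libraries.

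**Figure D1:**
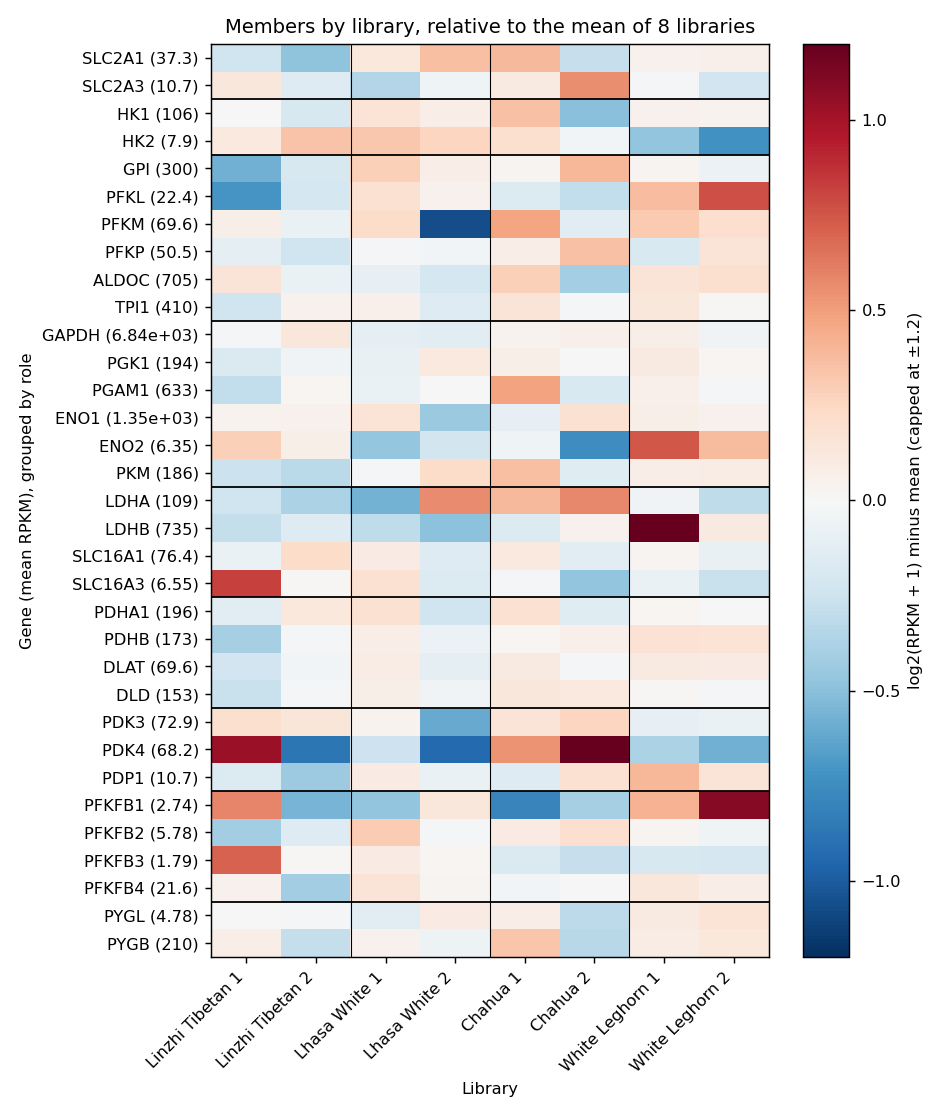
Levels of the 33 genes (rows, with the mean RPKM in brackets, grouped by role) in each of the 8 libraries (columns), as log2(RPKM + 1) minus the gene's mean over the libraries, with colour capped at ±1.2. LDHB stands out in White Leghorn 1, PFKM is low in Lhasa White 2, and PDK4 differs strongly between libraries of the same breed, while PDHA1, PGK1 and GAPDH are nearly even.

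Of both glucose transporters among the members, SLC2A1 (GLUT1), the basal transporter, had the higher mRNA level. SLC2A1 lay at 30.8 and 25.9 RPKM in the Linzhi Tibetan pair of libraries, 40.1 and 47.2 in the Lhasa White pair, 48.2 and 30.02 in the Chahua pair, and 37.8 and 38.2 in the White Leghorn pair. SLC2A3 (GLUT3), a transporter of high affinity, lay at 11.7 and 9.35 RPKM in the Linzhi Tibetan pair of libraries, 7.98 and 10.1 in the Lhasa White pair, 11.4 and 15.9 in the Chahua pair, and 10.3 and 8.83 in the White Leghorn pair. SLC2A1 thus held 77.2% ± 6.25 of the summed RPKM of both (SD, n = 8), with the lowest share, 65.3%, in Chahua 2.

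Hexokinase, which traps glucose in the cell as glucose 6-phosphate, was among the members mostly HK1, the isozyme of brain and red cells that most tissues express at a steady level. HK1 lay at 105 and 91.5 RPKM in the Linzhi Tibetan pair of libraries, 117 and 110.1 in the Lhasa White pair, 133 and 73.3 in the Chahua pair, and 108 and 108 in the White Leghorn pair. HK2, the inducible isozyme of muscle, had 3.79% to 9.81% of the summed RPKM of HK1 and HK2. Its share was lowest in White Leghorn, at 4.60% and 3.79%, and at least 6.26% in the other 6 libraries.

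In upper glycolysis, PFKM, PFKP and PFKL encode the muscle, platelet and liver types of phosphofructokinase, the main control point of the pathway. PFKM lay at 70.4 and 63.1 RPKM in the Linzhi Tibetan pair of libraries, 77.99 and 31.5 in the Lhasa White pair, 93.1 and 60.5 in the Chahua pair, and 83.03 and 76.9 in the White Leghorn pair. PFKP lay at 46.2 and 42.2 RPKM in the Linzhi Tibetan pair of libraries, 49.5 and 48.99 in the Lhasa White pair, 53.04 and 64.2 in the Chahua pair, and 44.1 and 56.01 in the White Leghorn pair. PFKL lay at 12.7 and 18.4 RPKM in the Linzhi Tibetan pair of libraries, 24.4 and 22.3 in the Lhasa White pair, 19.01 and 17.3 in the Chahua pair, and 28.05 and 37.2 in the White Leghorn pair. PFKM therefore led in 6 libraries and PFKP in Lhasa White 2 (30.6% PFKM, 47.7% PFKP) and Chahua 2 (42.6% PFKM, 45.2% PFKP). These libraries had the highest MYH7 and BMP-10 and the lowest IRX4, but the lowest and the highest ventricular sums. The part of tissue makeup in the PFKM and PFKP shares was not tested.

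GPI, which interconverts glucose and fructose phosphates, lay at 197 and 257 RPKM in the Linzhi Tibetan pair of libraries, 359 and 312 in the Lhasa White pair, 302 and 389 in the Chahua pair, and 302 and 280.3 in the White Leghorn pair. Both Linzhi Tibetan libraries were thus below all others. ALDOC was the only aldolase among the members with a row, and TPI1, triose phosphate isomerase, lay at 347 to 453 RPKM.

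In lower glycolysis, PGK1 was among the most even members. PGK1, a kinase that makes ATP from bisphosphoglycerate, ranged from 172 to 209 RPKM, and PKM, the pyruvate kinase row, from 146 to 236. Both Linzhi Tibetan libraries had the lowest PKM, at 153 and 146 RPKM. Between ENO1 and ENO2, the enolases with a row, nearly all was ENO1, and the part of ENO3 is unknown. ENO1 lay at 1377 and 1386 RPKM in the Linzhi Tibetan pair of libraries, 1500.3 and 985 in the Lhasa White pair, 1253 and 1519 in the Chahua pair, and 1409 and 1386 in the White Leghorn pair, with 99.5% ± 0.173 of the summed RPKM of both (SD, n = 8). ENO2, the neuronal enolase, lay at 7.53 and 6.38 RPKM in the Linzhi Tibetan pair of libraries, 4.09 and 5.04 in the Lhasa White pair, 5.74 and 3.19 in the Chahua pair, and 10.7 and 8.12 in the White Leghorn pair, so that both White Leghorn libraries were above the other 6. Of 4 nerve markers, STMN2 lay at 0.231 RPKM and 0 in White Leghorn 1 and 2, and at 32.2 in Lhasa White 2. The nerve list summed to 4.28 and 3.66 RPKM in White Leghorn and to 3.99 to 46.0 in the other 6.

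Lactate dehydrogenase was mostly LDHB, the heart-type subunit. LDHB held 85.8% ± 5.79 of the summed RPKM of both subunits (SD, n = 8), from 75.7% in Lhasa White 2 to 94.1% in White Leghorn 1. LDHA, the muscle-type subunit, lay at 88.6 and 80.04 RPKM in the Linzhi Tibetan pair of libraries, 70.05 and 155 in the Lhasa White pair, 137 and 156 in the Chahua pair, and 102 and 84.3 in the White Leghorn pair. The 3 libraries with the highest LDHA were thus Chahua 2, Lhasa White 2 and Chahua 1, and the Lhasa White libraries were the lowest and the next to highest. Of both lactate transporters among the members, SLC16A1 (MCT1), which carries lactate in either direction, had the higher mRNA level, at 71.97 and 88.9 RPKM in the Linzhi Tibetan pair of libraries, 81.3 and 68.1 in the Lhasa White pair, 82.9 and 69.1 in the Chahua pair, and 77.7 and 71.3 in the White Leghorn pair. SLC16A3 (MCT4), the exporter of strongly glycolytic cells, lay at 11.9 and 6.35 RPKM in the Linzhi Tibetan pair of libraries, 7.298 and 5.49 in the Lhasa White pair, 6.17 and 4.24 in the Chahua pair, and 5.89 and 5.05 in the White Leghorn pair. It made up 14.2% of both transporters in Linzhi Tibetan 1 and 5.78% to 8.23% in the others.

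Pyruvate dehydrogenase subunits varied little. PDHA1 and PDHB, the alpha and beta chains of its first enzyme, ranged from 165 to 222 and from 130 to 193 RPKM. DLAT, the acetyltransferase core, ranged from 58.9 to 74.9 RPKM, and DLD, the shared dehydrogenase, from 126 to 167. PDHB, DLAT and DLD were lowest in Linzhi Tibetan 1, and PDHA1 in Lhasa White 2. The pyruvate carrier rows BRP44 and BRP44L, named after their values were seen, lay at 138 to 242 and 109 to 179 RPKM. BRP44 lay at 138 to 187 RPKM in highland and 203 to 242 in lowland libraries, without overlap, while BRP44L overlapped. All highland libraries were below all lowland ones in 0.597% of all genes tested. The BRP44 difference was -0.42 and did not pass (limma adjusted p = 0.999).

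Of the kinases that switch pyruvate dehydrogenase off, PDK4 varied far more than these subunits. PDK4, which fasting and fatty acids induce in mammals, lay at 118 and 30.7 RPKM in the Linzhi Tibetan pair of libraries, 47.7 and 29.3 in the Lhasa White pair, 83.3 and 156 in the Chahua pair, and 43.6 and 37.8 in the White Leghorn pair. Its highest value was 5.31 times its lowest, against at most 1.48 times for the 4 subunits, and the Linzhi Tibetan libraries were the next to highest and the next to lowest. PDK3 lay at 82.1 and 79.5 RPKM in the Linzhi Tibetan pair of libraries, 74.1 and 46.8 in the Lhasa White pair, 79.8 and 85.8 in the Chahua pair, and 67.05 and 67.9 in the White Leghorn pair. PDK4 exceeded PDK3 in Linzhi Tibetan 1 and both Chahua libraries and was below it in the other 5. These 3 libraries also had the lowest sums of the red blood cell list (7 of 13 markers with a row, HBZ at or near 0 throughout). The sums, mostly HBAA, were 4949, 6936 and 7253 RPKM against 9053 to 21731 in the others. HBAA, HBE1 and SLC4A1 were each lowest in these 3. In Chahua 2, however, HBAD and EPB42 (1921 and 11.2 RPKM) exceeded those in Lhasa White 2 (1445 and 10.1). HBE was highest in Chahua 2 (19.6 RPKM). The part of blood content in the PDK4 and PDK3 levels was not tested. PDP1, the phosphatase that switches the complex on, lay at 9.35 and 7.54 RPKM in the Linzhi Tibetan pair of libraries, 11.4 and 9.94 in the Lhasa White pair, 9.39 and 12.1 in the Chahua pair, and 14.2 and 11.9 in the White Leghorn pair. Both Linzhi Tibetan libraries were below the other 6.

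The PFKFB genes encode bifunctional enzymes that set fructose 2,6-bisphosphate, an activator of phosphofructokinase. PFKFB4 led in all 8 libraries, at 22.3 and 15.8 RPKM in the Linzhi Tibetan pair of libraries, 23.96 and 22.01 in the Lhasa White pair, 20.9 and 21.5 in the Chahua pair, and 23.7 and 22.9 in the White Leghorn pair. It held 67.8% ± 2.40 of the family (SD, n = 8). PFKFB2, the heart isozyme of mammals, lay at 4.02 and 5.05 RPKM in the Linzhi Tibetan pair of libraries, 7.32 and 5.66 in the Lhasa White pair, 6.18 and 6.71 in the Chahua pair, and 5.85 and 5.47 in the White Leghorn pair. It held 18.3% ± 3.52 (SD, n = 8). PFKFB1, the liver and muscle isozyme, rested on 8 to 59 reads per library, at 4.096 and 1.32 RPKM in the Linzhi Tibetan pair of libraries, 1.45 and 2.73 in the Lhasa White pair, 0.966 and 1.58 in the Chahua pair, and 3.54 and 6.28 in the White Leghorn pair. PFKFB3, an isozyme that hypoxia induces in mammals, lay at 3.45 and 1.76 RPKM in the Linzhi Tibetan pair of libraries, 1.91 and 1.78 in the Lhasa White pair, 1.41 and 1.26 in the Chahua pair, and 1.38 and 1.37 in the White Leghorn pair. Its 4 highland libraries were all above its 4 lowland ones.

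Glycogen phosphorylase, which releases glucose from glycogen, was nearly all PYGB, the brain isozyme, among the members. PYGM is not a member and is left out of this sum. PYGB lay at 219 and 170.3 RPKM in the Linzhi Tibetan pair of libraries, 216 and 199 in the Lhasa White pair, 262 and 165 in the Chahua pair, and 222 and 228 in the White Leghorn pair. PYGL, the liver isozyme, lay at 4.75 and 4.69 RPKM in the Linzhi Tibetan pair of libraries, 4.24 and 5.17 in the Lhasa White pair, 5.06 and 3.63 in the Chahua pair, and 5.21 and 5.45 in the White Leghorn pair. PYGB thus held 97.8% ± 0.275 of the summed RPKM (SD, n = 8), and PYGL was highest in both White Leghorn libraries.

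**Figure D2:**
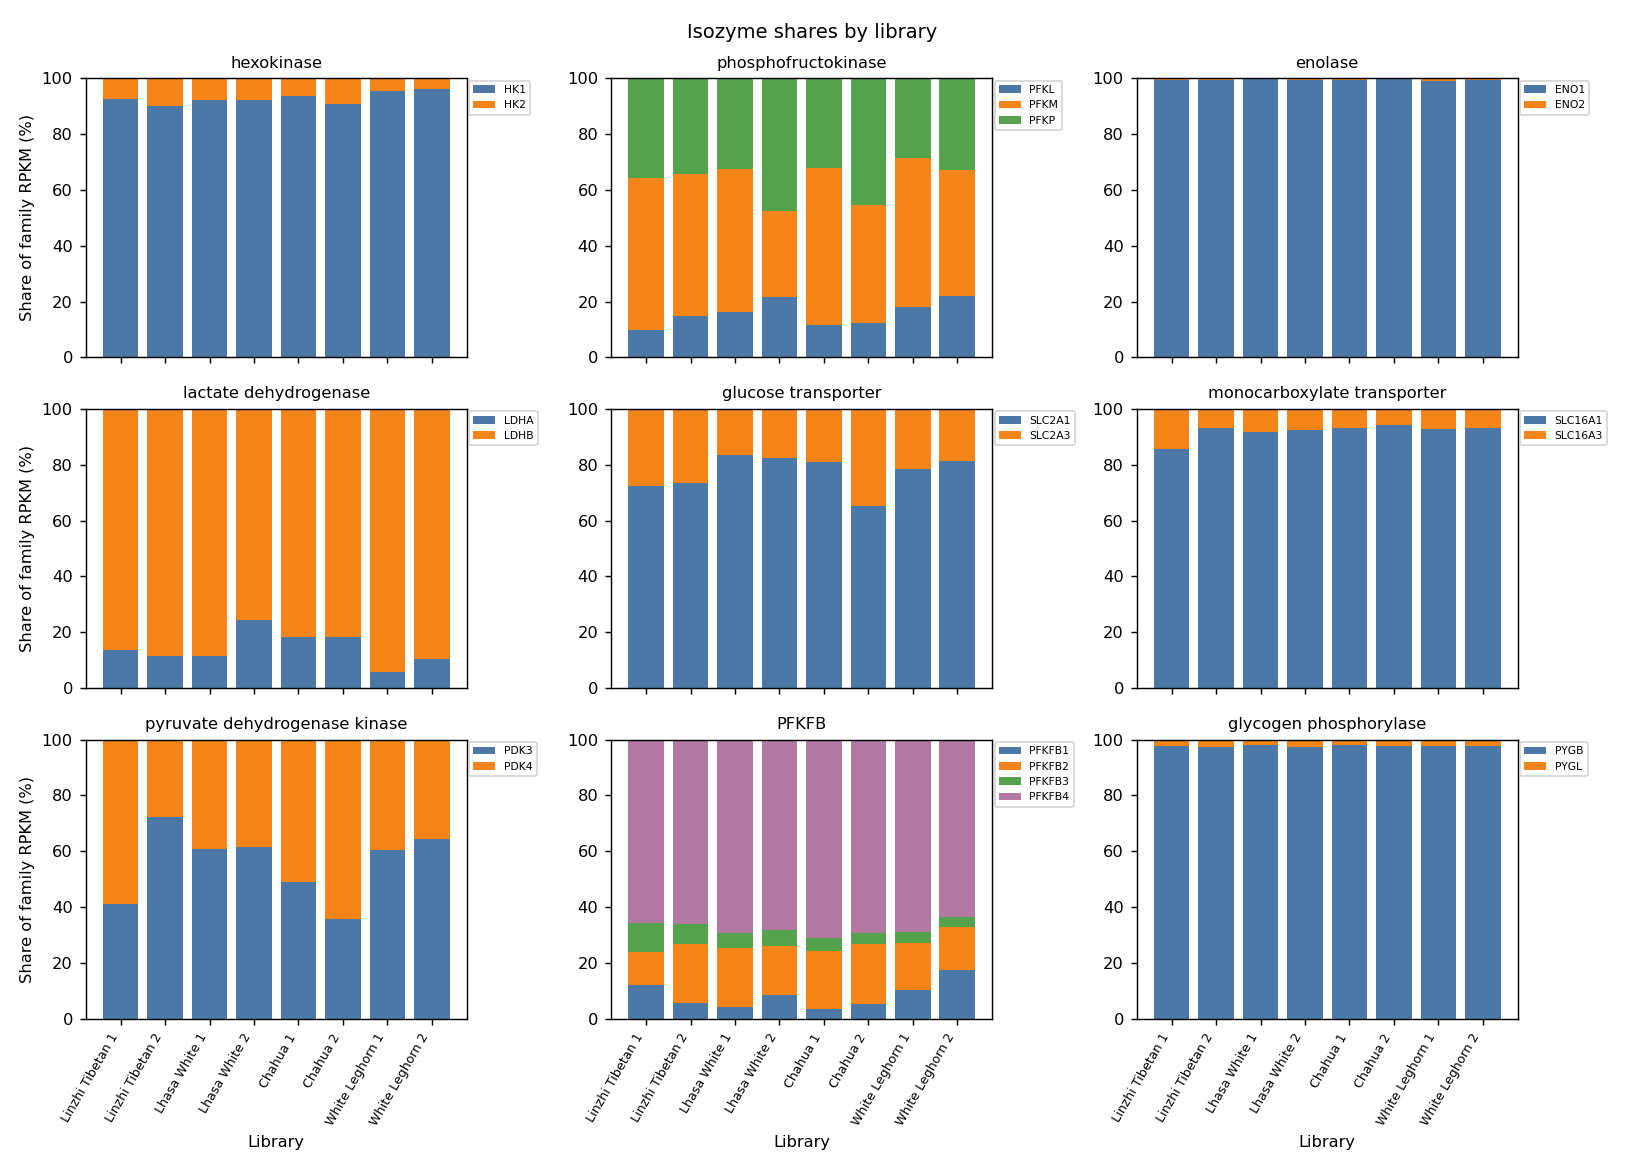
Share of each isozyme (percent of the summed RPKM of the family's members with a row, stacked to 100) in each of the 8 libraries, for 9 families. HK1, ENO1, LDHB, SLC2A1, SLC16A1, PFKFB4 and PYGB lead in every library, whereas the leading gene changes between libraries for phosphofructokinase and for PDK3 and PDK4. PDK1 is not a member and is left out of these shares.

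These isozyme proportions were compared between highland and lowland libraries as log2 ratios within 12 pairs, which do not depend on library scaling. None of the 12 passed an exact two-sided permutation test over the 8 libraries after Benjamini-Hochberg adjustment over the 12, where 0.0286 is the smallest unadjusted p that 4 against 4 allows. A ratio that reaches this p alone cannot pass the adjustment, so the lack of a pass says little. The test also treats the 8 libraries as exchangeable, although each breed gave 2. Its p therefore does not cover the spread between breeds of the same origin. PFKFB3/PFKFB4 reached that smallest p (adjusted p = 0.343), with a log2 ratio of -3.29 ± 0.452 over the highland libraries against -4.04 ± 0.102 over the lowland ones (SD, n = 4 each), higher in 4 of 4 highland libraries. SLC16A3/SLC16A1 differed by 0.45 (exact permutation p = 0.0857, adjusted p = 0.514) and HK2/HK1 by 0.57 (0.143 and 0.571). LDHB/LDHA had log2 ratios of 2.55 ± 0.623 and 2.86 ± 0.885 (SD, n = 4 each, exact permutation p = 0.6).

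HK2 and LDHB had differences of opposite sign between highland and lowland breeds, neither of which passed the test, and White Leghorn had the extreme values of both. These genes are set side by side because earlier results of these data singled them out, so the pairing is a description. HK2 lay at 8.39 and 9.95 RPKM in the Linzhi Tibetan pair of libraries, 9.801 and 9.32 in the Lhasa White pair, 8.89 and 7.42 in the Chahua pair, and 5.21 and 4.24 in the White Leghorn pair. Both White Leghorn libraries were below all others, and Chahua overlapped the highland breeds. The values rest on 250 to 664 reads per library.

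LDHB lay at 558 and 610.1 RPKM in the Linzhi Tibetan pair of libraries, 551 and 484 in the Lhasa White pair, 607 and 706 in the Chahua pair, and 1631 and 732 in the White Leghorn pair. Both White Leghorn libraries were above all others, but White Leghorn 2 exceeded Chahua 2 by little (732 against 706 RPKM). White Leghorn 1 was far above its partner. LDHB exceeded HK2 by 51.9 to 66.5 times in highland libraries, 68.2 and 95.1 times in Chahua, and 313 and 173 times in White Leghorn. The log2 ratio of HK2 to LDHB was -5.88 ± 0.155 over the highland libraries against -7.10 ± 0.970 over the lowland ones (SD, n = 4 each). The difference of 1.22 fell to 0.82 without White Leghorn 1. The ratios did not overlap, but Linzhi Tibetan 1 (-6.06) and Chahua 1 (-6.09) were close. HK2 and LDHB had the smallest highland minus lowland p of the members, with opposite signs. A separated ratio therefore follows in part from the choice of genes, and the share of other gene pairs without overlap is not given here.

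**Figure D3:**
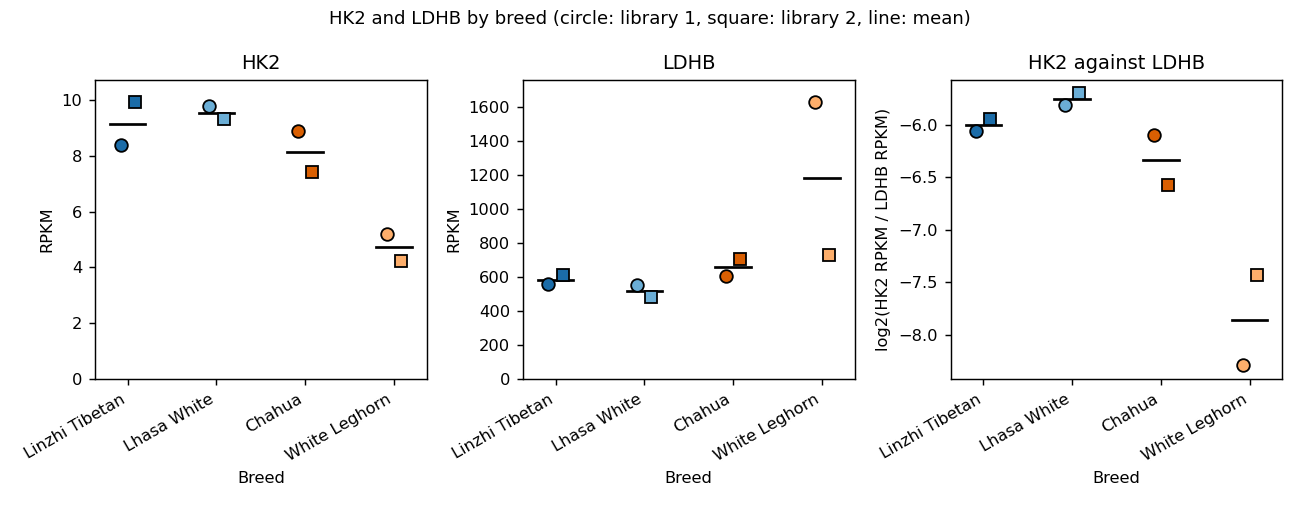
RPKM of HK2 (left) and LDHB (middle) and their log2 ratio (right) in each library by breed (circle, library 1; square, library 2; line, mean of both). White Leghorn has the lowest HK2 (5.21 and 4.24 RPKM), the highest LDHB (1631 and 732 RPKM) and the lowest ratio. Chahua lies next to the highland breeds in HK2 and in the ratio, while LDHB in Chahua 2 (706 RPKM) is close to White Leghorn 2.

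In the limma fit over all 11556 genes, HK2 was higher in highland breeds by 0.52 on the log2(RPKM + 1) scale, which understates changes of low genes (SE 0.126, 95% interval 0.22 to 0.82, limma adjusted p = 0.999). The LDHB difference was -0.62 in the same fit (SE 0.237, 95% interval -1.18 to -0.07), with a limma adjusted p = 0.999. Neither passed after Benjamini-Hochberg adjustment over all genes. These standard errors and intervals rest on the spread of libraries within breeds, not on the spread between breeds of the same origin. By breed, the HK2 difference from White Leghorn was 0.83 for Linzhi Tibetan, 0.89 for Lhasa White and 0.68 for Chahua (limma adjusted p = 0.641, 0.928 and 0.48), comparisons that share the White Leghorn libraries. Against Chahua, HK2 differed by 0.15 in Linzhi Tibetan (95% interval -0.27 to 0.57) and 0.21 in Lhasa White (-0.21 to 0.63). For LDHB the same differences were -0.90, -1.08 and -0.74 (limma adjusted p = 0.795, 1 and 0.639).

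Sex-linked transcripts were uneven between the groups, with 1 of 4 highland and 3 of 4 lowland libraries holding W-linked transcripts. The HK2 difference was 0.36 within the libraries with W-linked transcripts (1 highland, Lhasa White 2, and 3 lowland) and 0.98 within those without (3 highland and 1 lowland, White Leghorn 2). For LDHB it was -0.87 and -0.35, and -0.34 when the W-linked level was a covariate. LDHB was also at -0.33 without White Leghorn 1, which holds W-linked transcripts. Lhasa White 2 had the lowest LDHB of all libraries and White Leghorn 2 the lowest HK2. In each stratum 1 origin is a single library, so origin cannot be told apart from that library or its breed. The red blood cell list summed to 4949 to 21731 RPKM in highland and 6936 to 16806 in lowland libraries, and its part in either difference was not tested.

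No member passed in any comparison, between highland and lowland breeds, over all 4 breeds or in the 6 breed pairs. Between highland and lowland breeds limma called 0 of the 33, against 0.00865% of all genes tested, and 2 of the 33 (HK2 and LDHB) had an unadjusted p under 0.05, against 3.13% of all genes. Voom on recovered reads also called 0, with 3 at an unadjusted p under 0.05 against 2.86% of all genes. For any difference among breeds, limma's moderated F called 0 members and 0% of all genes. At an unadjusted p under 0.05 it had 4 members, HK2, PFKL, ENO2 and GPI, against 6.52% of all genes, and their limma adjusted p ran from 0.599 to 0.760. Voom had 0 calls and 3 members at that p against 5.68% of all genes.

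In the breed pairs, limma also called 0 members, against 0.00865% of all genes between Lhasa White and Chahua and 0% in the other 5 pairs. At an unadjusted p under 0.05 there were 3 members between Linzhi Tibetan and Lhasa White (7.81% of all genes), 3 between Linzhi Tibetan and Chahua (7.06%) and 5 between Linzhi Tibetan and White Leghorn (6.14%). There were 3 between Lhasa White and Chahua (5.18%), 3 between Lhasa White and White Leghorn (4.04%) and 5 between Chahua and White Leghorn (7.87%). Voom called 0 members in each pair, for which its share over all genes is not given here. As the pairs share libraries, their counts are not independent.

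Members were more often lower than higher in highland breeds. Of the 33, 28 were lower and 5 (HK1, HK2, SLC16A1, SLC16A3 and PFKFB3) higher, while 42% of all genes tested were lower. The median log2 difference was -0.14 for the members and 0.03 for all genes. Members of a pathway and the libraries they are read from are not independent, and an earlier list overlapping this one already showed this direction. By library, the median deviation of members from their means was -0.08 and -0.08 in Linzhi Tibetan, 0.07 and -0.05 in Lhasa White, 0.10 and -0.02 in the Chahua pair, and 0.07 and 0.04 in the White Leghorn pair, so the groups overlapped. The pooled SD of this library median within breeds was 0.0634. As a share of mapped reads, which GAPDH and the other abundant members dominate, the members took 1.91% ± 0.103 in highland against 2.14% ± 0.133 in lowland libraries (SD, n = 4 each). These shares did not overlap, although the highest highland value (2.008% in Linzhi Tibetan 2) and the lowest lowland value (2.017% in White Leghorn 2) were close. LDHB gave 33514 of 444848 member reads in Linzhi Tibetan 2 and 35544 of 395010 in White Leghorn 2. Without LDHB reads, the share in Linzhi Tibetan 2 would exceed that in White Leghorn 2. The same holds without ALDOC reads (21105 and 22592 in these libraries), so the separation is narrow and does not rest on LDHB alone. Between single breeds, 23 of 33 were lower in Linzhi Tibetan against Chahua (median -0.17, with 49.3% of all genes lower) and 25 against White Leghorn (-0.17 and 51.5%). For Lhasa White, 23 were lower against Chahua (-0.03 and 39.3%) and 22 against White Leghorn (-0.08 and 42.6%).

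**Figure D4:**
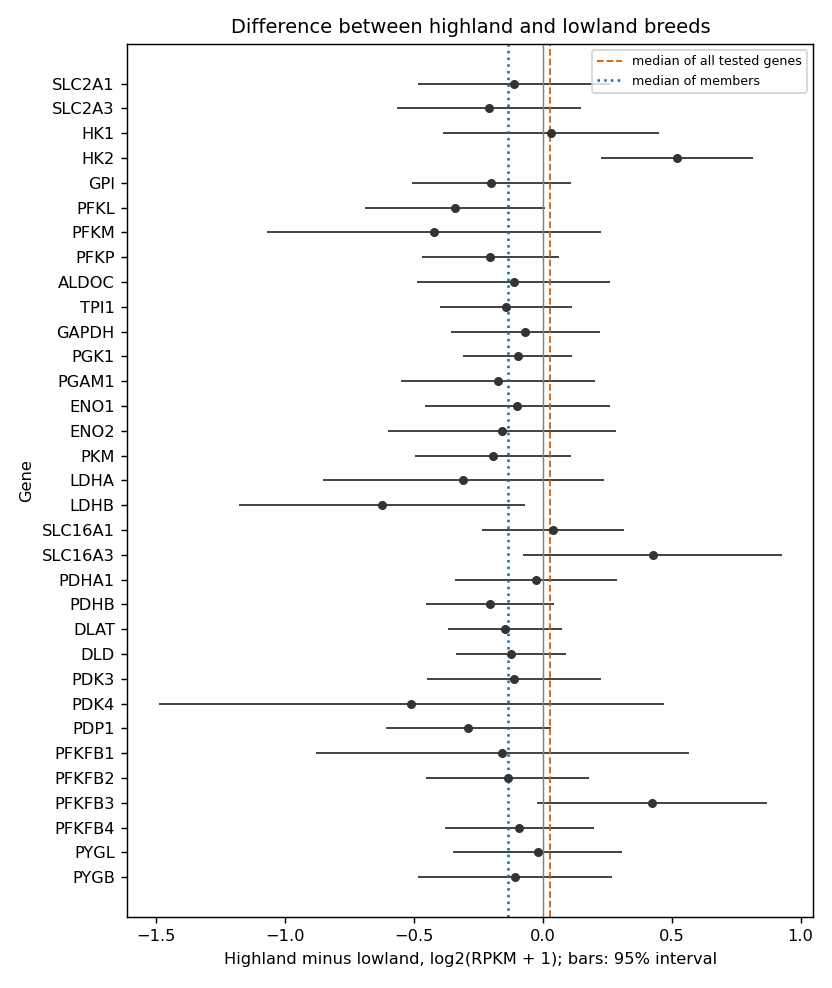
Difference of each of the 33 genes between highland and lowland breeds on the log2(RPKM + 1) scale, with limma 95% intervals (bars, unadjusted), the median of the members (dotted) and of all tested genes (dashed). HK2 (0.52) and LDHB (-0.62) are the genes whose intervals leave out 0.

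White Leghorn was the breed with the most members set apart, a count made after the values were seen. Both its libraries lay above the other 6 in 5 members, PFKL, ENO2, LDHB, PDHB and PYGL, which is 15.2% of members against 5.88% of all genes tested, and below them in HK2 alone (3.03% against 4.47%). For PFKL the differences from White Leghorn were -1.03 for Linzhi Tibetan, -0.45 for Lhasa White and -0.80 for Chahua (limma adjusted p = 0.641, 1 and 0.48). For ENO2 they were -0.38, -0.90 and -0.96 (limma adjusted p = 0.831, 1 and 0.52). PDHB and PYGL exceeded the next library by little, with 193 and 192 RPKM against at most 182, and 5.21 and 5.45 against at most 5.17. LDHB in White Leghorn 2 also did, with 732 RPKM against at most 706.

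Both Linzhi Tibetan libraries lay below the other 6 in GPI, PKM, PDP1 and PFKFB2 (12.1% of members against 6.27% of all genes) and above them in none (0% against 4.28%). For PDP1 the margin was narrow, with 9.35 RPKM in Linzhi Tibetan 1 against 9.39 in Chahua 1. Lhasa White was below the rest in GAPDH and LDHB (6.06% against 1.55%) and above in none (0% against 4.02%). Its LDHB margin was also narrow, with 551 RPKM in Lhasa White 1 against 558 in Linzhi Tibetan 1. Chahua was above the rest in DLD (3.03% against 2.28%) and below in none (0% against 6.12%). Between the 4 highland and 4 lowland libraries, PFKFB3 did not overlap, being higher (3.03% against 0.935%), and no member was lower throughout (0% against 0.597%). BRP44, the row of the member MPC2 by synonym, is outside this count and was lower throughout. The PFKFB3 difference was 0.42 (SE 0.191, limma adjusted p = 0.999), 0.65 with voom, and 0.25 without Linzhi Tibetan 1.

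**Figure D5:**
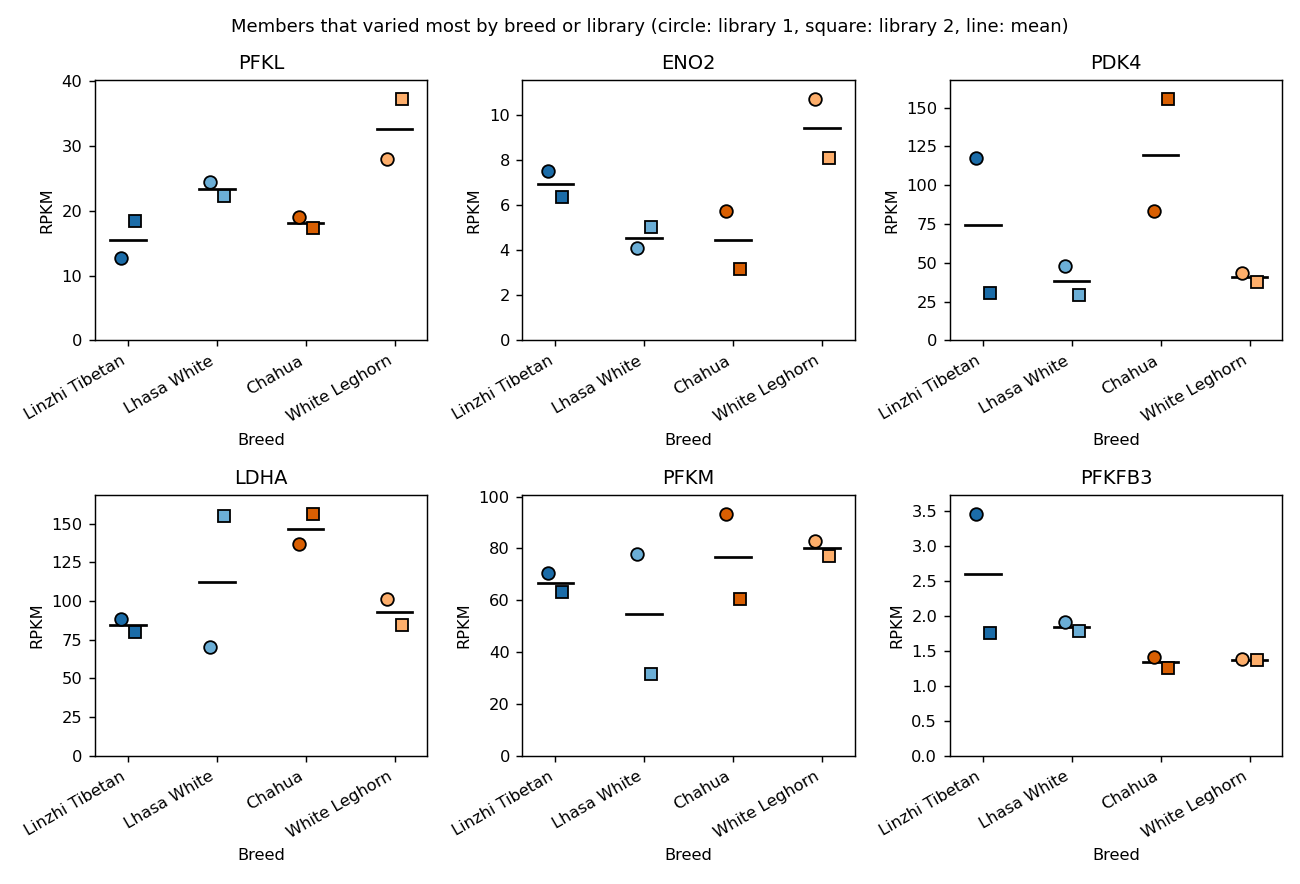
RPKM by breed of 6 members (circle, library 1; square, library 2; line, mean of both), each panel with its own axis from 0. PFKL and ENO2 are highest in both White Leghorn libraries, PFKFB3 is higher in all 4 highland libraries, and PDK4, LDHA and PFKM differ widely within a breed.

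Genes of the neighbouring steps did not pass either. Of a further list of 71 genes of glucose transport, gluconeogenesis, glycogen, the pentose phosphate pathway, lactate and pyruvate handling and redox shuttles, 55 had a row and 47 rows passed the filter. Limma and voom called 0 of these between highland and lowland breeds and among the 4 breeds. At an unadjusted p under 0.05 limma had 3 of the 47 against 3.13% of all genes, and 7 of the 47 against 6.52%. Between highland and lowland breeds 26 were lower and 21 higher (median -0.05). The 4 with the smallest p among breeds were TALDO1, transaldolase of the pentose phosphate pathway, SLC16A7 (MCT2), a lactate and pyruvate importer, GPD2, the mitochondrial glycerol phosphate dehydrogenase, and ADPGK, an ADP-dependent glucokinase. TALDO1 was at 28.6 and 24.6 RPKM in the Linzhi Tibetan pair of libraries, 41.1 and 43.3 in the Lhasa White pair, 24.3 and 31.2 in the Chahua pair, and 37.7 and 37.6 in the White Leghorn pair, higher in Lhasa White and White Leghorn than in the other 4 libraries. GPD2 was at 7.84 and 8.47 RPKM in the Linzhi Tibetan pair of libraries, 9.66 and 12.2 in the Lhasa White pair, 6.11 and 6.17 in the Chahua pair, and 9.49 and 9.43 in the White Leghorn pair, with Lhasa White highest and Chahua lowest. ADPGK was at 5.91 and 5.503 RPKM in the Linzhi Tibetan pair of libraries, 9.13 and 9.53 in the Lhasa White pair, 6.99 and 6.16 in the Chahua pair, and 7.88 and 7.23 in the White Leghorn pair, lowest in both Linzhi Tibetan libraries and highest in both Lhasa White ones. SLC16A7 was at 4.23 and 7.21 RPKM in the Linzhi Tibetan pair of libraries, 2.698 and 2.64 in the Lhasa White pair, 6.66 and 13.1 in the Chahua pair, and 3.95 and 3.201 in the White Leghorn pair, with its highest value in Chahua 2 (limma adjusted p over the 4 genes from 0.621 to 0.705). As these 4 were picked by their p, separation of breeds in them follows from the choice. Over all genes tested, both Lhasa White libraries lay above the other 6 in 4.02%. Both Chahua libraries lay below the other 6 in 6.12%, and both Linzhi Tibetan ones in 6.27%.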

How the data were processed

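Heart RNA was isolated with TRIzol and prepared with an mRNA-Seq kit of Illumina, as the labels' protocols state. RPKM values, 1 column a library, were deposited by the authors, per the file headers, and the submitters' processing notes name BWA. The sources used here give no build, gene models, counting, strand or filters, so no coordinates are printed and reads shared by isozymes, overlapping or antisense genes cannot be told apart. Library totals were recovered from the steps in the RPKM values, giving whole reads for 99.99% of rows (tolerance at most 0.05 reads).

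Of the 15873 rows, 2730 have no symbol. Values were analysed as log2(RPKM + 1) after a filter of 1 RPKM in at least 2 libraries (11556 genes). Limma 3.58.1 (R 4.3.3) fitted 1 mean per breed to all 8 libraries with a variance trend (4 residual degrees of freedom). Its p-values and intervals thus rest on the spread of libraries within breeds, also between highland and lowland breeds. A check of the fit on simulated data used larger changes than any member showed between highland and lowland breeds. It therefore does not show whether differences of that size would be called. The p-values were adjusted by Benjamini-Hochberg over all genes within a contrast at 0.05. Isozyme ratios carry no pseudocount and were tested by exact permutation. Other steps used Python 3.11.15 with SciPy 1.17.1, NumPy 2.4.6, matplotlib 3.10.9 and pandas 2.3.3. W-linked level is the mean log2 of ATP5A1W, HINTW and SPINW. Alternatives covered pseudocount, filter, scaling, voom, variance model, replicate block, W-linked level and left-out libraries. The members, gene lists and tests were chosen with earlier results of these data known. Every member with a row is named, and values of each library are given for HK2, LDHB, isozymes and the members with the smallest p. BRP44, BRP44L and the genes under other observations were named after their values were seen.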

Additional observations from a re-analysis of the deposited data

Results flagged for a closer look

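In 66 groups of 4 libraries (33 genes, highland and lowland), 2 had a library set far from the other 3, where chance gives about 1 in 20. PFKFB3 lay at 3.45 RPKM in Linzhi Tibetan 1 against 1.76 to 1.91 in the other highland libraries. DLAT lay at 68.5 RPKM in Chahua 2 against 74.4 to 74.9 in the other lowland libraries.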

How the results depend on the processing

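No member was called in any contrast under any alternative run, and the smallest adjusted p of a member was 0.0638 (ENO2, Chahua against White Leghorn, without Chahua 1). The median log2 difference of members between highland and lowland breeds stayed below 0, from -0.16 with median ratio scaling to -0.10 without Lhasa White 2 (-0.14 to -0.10 over the omissions of 1 library). HK2 ran from 0.46 to 0.58 and LDHB from -0.91 to -0.33 over these omissions, the LDHB extremes being without White Leghorn 2 and 1. PFKL (-0.47 to -0.22), PFKFB3 (0.25 to 0.60), PDP1 (-0.37 to -0.21) and SLC16A3 (0.22 to 0.63) kept their direction, PDP1 also at -0.16 without Lhasa White 2 and Chahua 2. The HK2 to LDHB log2 difference ran from 0.82 (without White Leghorn 1) to 1.56 (without Chahua 1). Of the isozyme ratios, 0 passed under any of 11 alternatives, where a ratio alone at the smallest p cannot pass. Without both Lhasa White 2 and Chahua 2 too few libraries remain for any ratio to pass. The extremes of PFKL, PFKFB3 and SLC16A3 were without Linzhi Tibetan 1 or 2. With the replicate number as a block, 0 members passed and HK2 stayed at 0.52. Deviations of same-numbered libraries correlated from -0.33 to 0.17 over the 6 breed pairs, so no pairing by number was seen. With 2 libraries a breed, other differences within breeds could mask one. Alternatives within W-linked strata, for the HK2 to LDHB ratio, for other pathway genes and with 1 added to the ratios were chosen after seeing the data. At 8 to 59 reads, PFKFB1 is the member most limited by depth.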

Other observations

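PDK1, a pyruvate dehydrogenase kinase that hypoxia-inducible factor induces in mammals, lay at 72.5 to 114 RPKM, highest in Chahua 2, which also had the highest PDK4 (156 RPKM) and PDK3 (85.8). In both Lhasa White libraries (90.8 and 72.5 RPKM) and both White Leghorn ones (74.3 and 85.4) PDK1 exceeded PDK3 and PDK4. BSG, the chaperone that brings SLC16A1 and SLC16A3 to the membrane, lay at 594 to 821 RPKM, highest in Linzhi Tibetan 1, the library with the highest SLC16A3 (11.9 RPKM) and PFKFB3 (3.45).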
